A study of Mus musculus with 4 samples.

Results

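The 10 genes of the cytotoxic arm described here were read in 4 spatial transcriptome sections of MC38 tumors: the granzymes Gzma, Gzmb, Gzmc, Gzmd, Gzme, Gzmf and Gzmk, perforin (Prf1), the granule membrane protein gene Nkg7 and Fas ligand (Fasl). They were taken by gene symbol, and all 10 were found among the 32285 genes of the deposited matrices. MC38, a murine colorectal carcinoma line derived from C57BL/6, was implanted subcutaneously in female F1 hosts, crosses of C57BL/6J with a Collaborative Cross strain: CC075/UncJ for CC075F1, a host the study describes as responding to PD-1 blockade, and CC080/TauUncJ for CC080F1, a host it describes as not responding. All mice were 8 to 12 weeks old, received the same number of cells, and were given 200 µg of an isotype control antibody when tumors measured 75 to 110 mm3. Tumors were taken 48 h later, so every section shows a tumor without PD-1 blockade. Each strain gave 2 sections, labelled as biological replicates and called section 1 and section 2 by their replicate number, which links no section of one strain to a section of the other. The p-values of edgeR and DESeq2 rest on UMI sums from these few sections, with the spread estimated partly from all genes. A gene's own spread between sections can therefore be wider than its standard error.

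Killer lymphocytes carry granules in which granzymes, a family of serine proteases, are stored with perforin. When such a cell meets its target, the granules fuse with the membrane, perforin opens the target's membrane, and the granzymes enter and cut proteins that lead to cell death. Fas ligand kills by another route, through the receptor Fas on the target. CD8 T cells and natural killer (NK) cells share most of this machinery. Gzmb and Gzma are the granzymes most often used to mark such cells. Gzmk is typical of memory-like and early effector CD8 T cells. Gzmc, Gzmd, Gzme and Gzmf lie beside Gzmb in a gene cluster of rodents and come on in strongly or repeatedly stimulated killer cells.

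A Visium section is a grid of barcoded spots, each of which captures the polyadenylated RNA of the few cells above it, and a unique molecular identifier (UMI) marks each captured molecule. The 4 sections held 2710 to 3276 spots under tissue and 82594649 to 146460975 UMIs, with a median of 31139 to 41740 UMIs per spot. Levels are CPM, the UMIs of a gene divided by the total UMIs of its section and scaled to a depth of 1000000 UMIs. A spot is not a cell, so a lower level can be fewer cells of a type or less RNA per cell, and these cannot be told apart here. The tumor marker Shisal2b was read at 123 to 267 CPM and the macrophage gene Lyz2 at 1200 to 2290 CPM, the epithelial keratins Krt8 and Krt18 were near 0 (0.0107 to 0.242 CPM), and Cd8a stood between 1.13 and 12.7 CPM and the NK receptor gene Ncr1 between 0.353 and 2.61 CPM. In CC075F1 section 2, muscle RNA was present (Acta1 at 76.0 CPM, against 0.109 to 6.69 CPM in the other sections).

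The levels of the members followed 2 different orders across the 4 sections. The first order separated the sections within each strain. Gzmc was at 6.40 and 27.8 CPM in the CC075F1 sections and at 4.55 and 54.4 CPM in the CC080F1 sections. Gzmf was at 2.99 and 32.8 CPM in CC075F1 and at 1.93 and 58.8 CPM in CC080F1. Section 2 was therefore high and section 1 low in both strains, and the ranges of the strains overlapped. Gzmd had the same order, with 2.53 and 24.9 CPM in CC075F1 and 0.748 and 36.1 CPM in CC080F1. Gzme, the scarcest of these 4, had 0.678 and 9.89 CPM in CC075F1 and 0.224 and 18.6 CPM in CC080F1. The gap between section 2 and section 1 was 4.35- to 14.6-fold in CC075F1 and 11.9- to 82.8-fold in CC080F1 over these 4 genes.

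Gzma, Gzmb and Prf1 shared that order, with gaps of 1.55- to 3.71-fold in CC075F1 and 6.04- to 14.7-fold in CC080F1. Gzma was at 3.03 and 9.08 CPM in CC075F1 and at 1.33 and 19.4 CPM in CC080F1. Gzmb was at 2.54 and 9.44 CPM in CC075F1 and at 1.81 and 10.9 CPM in CC080F1. Prf1 was at 4.26 and 6.62 CPM in CC075F1 and at 2.31 and 17.5 CPM in CC080F1. For all 3 genes the lowest level was in CC080F1 section 1 and the highest in CC080F1 section 2, so both CC075F1 sections lay inside the range of CC080F1. Counting Nkg7 and Gzmk, whose gaps were small, 9 of the 10 members were higher in section 2 than in section 1 in both strains, an order held by 11.3% of the 14203 genes with 100 or more UMIs. The tumor marker Shisal2b had it too (145 and 252 CPM in CC075F1, 123 and 267 CPM in CC080F1), and its part in the members' order was not tested.

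The second order separated the strains. Nkg7, whose protein sits in the granule membrane and is needed for efficient degranulation, was at 18.6 and 25.1 CPM in CC075F1 and at 4.33 and 7.26 CPM in CC080F1, so that the ranges of the strains did not overlap. Gzmk was at 0.702 and 0.894 CPM in CC075F1 (58 and 131 UMIs), and at 0.0107 and 0.0266 CPM in CC080F1, which rest on 1 and 3 UMIs. The pooled ratio for Gzmk was 42.5, with an exact 95% interval of 16.3 to 158 that covers counting error only. Fasl was at 1.60 and 1.13 CPM in CC075F1 and at 0.556 and 0.923 CPM in CC080F1, a split without overlap but with the closest sections only slightly apart. These 3 members are the only ones of the 10 in which both CC075F1 sections stood above both CC080F1 sections, an order that 6.41% of the genes with 100 or more UMIs had. The opposite order was far more common in CPM, at 30.6%. These shares, like the 11.3% above, use CPM, which is not scaled for composition. With library size alone the median log2 fold change over all genes was -0.31, and with TMM scaling for composition it was -0.02. In that TMM-scaled edgeR test, 496 genes were higher and 350 lower in CC075F1 at an unadjusted p under 0.05.

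Both CD8 chains were split by strain without overlap, as Nkg7 and Gzmk were. Cd8a was at 12.7 and 6.59 CPM in CC075F1 and at 2.46 and 1.13 CPM in CC080F1. Cd8b1, the partner chain of the CD8 receptor, was at 6.91 and 5.99 CPM in CC075F1 and at 1.71 and 0.967 CPM in CC080F1. Of the T cell receptor complex, Trbc1 overlapped between the strains (7.14 and 12.4 CPM in CC075F1, 2.01 and 8.69 CPM in CC080F1). In the edgeR test between strains given below, all 7 genes of this complex had positive log2 fold changes (median 1.65, against -0.02 over all genes). Of these 7, Cd3g was called higher in CC075F1 (2.42 ± 0.27, adjusted p = 0.0491). Of the NK receptor genes, Ncr1 and Klrb1c overlapped and Klre1 did not. Ncr1 was at 0.448 and 0.765 CPM in CC075F1 and at 0.353 and 2.61 CPM in CC080F1, the last being the section in which Gzma, Gzmc, Gzmf and Prf1 were also highest. Klrb1c was at 0.872 and 0.792 CPM in CC075F1 and at 0.374 and 1.88 CPM in CC080F1, and Klre1 was at 3.29 and 2.68 CPM in CC075F1 and at 0.759 and 2.46 CPM in CC080F1.

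**Figure D1:**
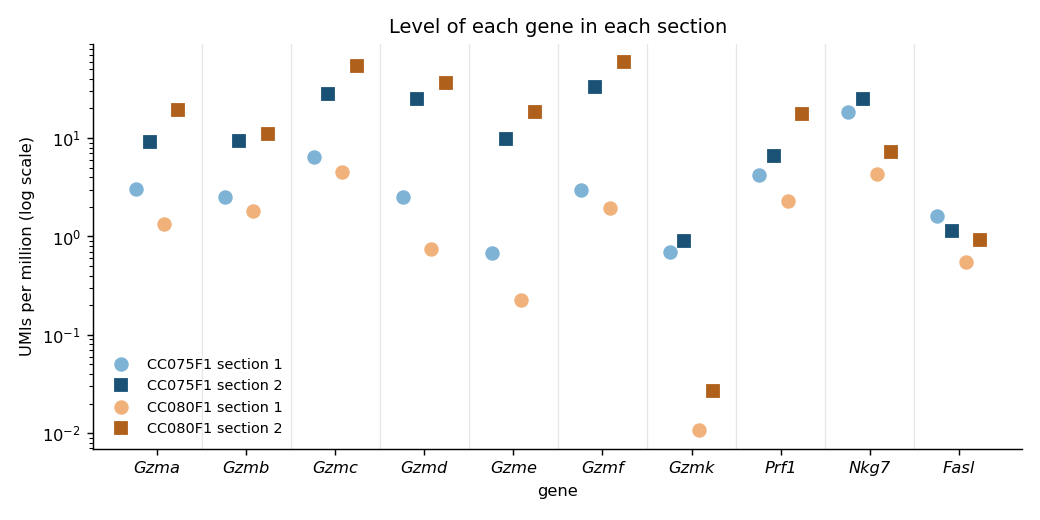
Level of each of the 10 genes in each section, in CPM on a log axis. Circles are section 1 and squares section 2, blue CC075F1 and orange CC080F1; the squares lie above the circles for the granzymes Gzma to Gzmf and Prf1, whereas blue lies above orange for Gzmk, Nkg7 and Fasl.

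The test between strains, edgeR's quasi-likelihood test on the summed UMIs of each section with TMM scaling, called none of the 10 members at an adjusted p of 0.05. In all, 14 of 15572 genes were called (0.0899%, with 0.0578% higher in CC075F1 and 0.0321% lower). At an unadjusted p under 0.05 there were 3 members, beside 846 of the 15572 genes. Gzmk had a log2 fold change (CC075F1 over CC080F1) of 5.65 ± 0.71 (SE, adjusted p = 0.0657) and Nkg7 one of 2.27 ± 0.40 (adjusted p = 0.179). Fasl had 1.15 ± 0.43 (adjusted p = 0.830). The other 7 members lay between -0.52 and 0.35 with standard errors from 0.83 to 1.64, and the median of all 10 was -0.11 beside -0.02 over all genes tested. An exact permutation test over 2 against 2 sections cannot go below p = 0.3333, which is the value for the CPM of Gzmk, Nkg7 and Fasl. DESeq2's Wald test called 2 members, Nkg7 (adjusted p = 1.11e-05) and Gzmk (adjusted p = 1.81e-06). The directions of the members of the first order depended on which section was left out. Without CC080F1 section 2, the log2 fold change was 3.82 for Gzmf and 2.48 for Gzmc, while without CC075F1 section 2 that of Gzmf was -3.36. Without CC080F1 section 1, Gzme was at -1.32 and Prf1 at -1.35. Gzmk (5.14 to 6.49), Nkg7 (1.71 to 2.78) and Fasl (0.79 to 1.66) stayed positive whichever section was left out. Each of these fits left 1 section in a strain, with no spread for that strain, so only fold changes are given.

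The make-up of the effector transcripts also differed between the sections of a strain. Over all 10 genes, 3576 and 21621 UMIs were read in the CC075F1 sections and 1665 and 25229 UMIs in the CC080F1 sections. Gzmc to Gzmf together made up 29.1% and 64.6% of these UMIs in CC075F1 and 41.9% and 75.0% in CC080F1. Nkg7 made up 42.9% and 17.0% in CC075F1 and 24.3% and 3.24% in CC080F1. The share of Gzma was steadier, between 6.15% and 8.68% in the 4 sections. UMIs mark captured 3′ ends and are not scaled by length, and genes differ in capture, so these are shares of UMIs and not of protein or of cells.

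**Figure D2:**
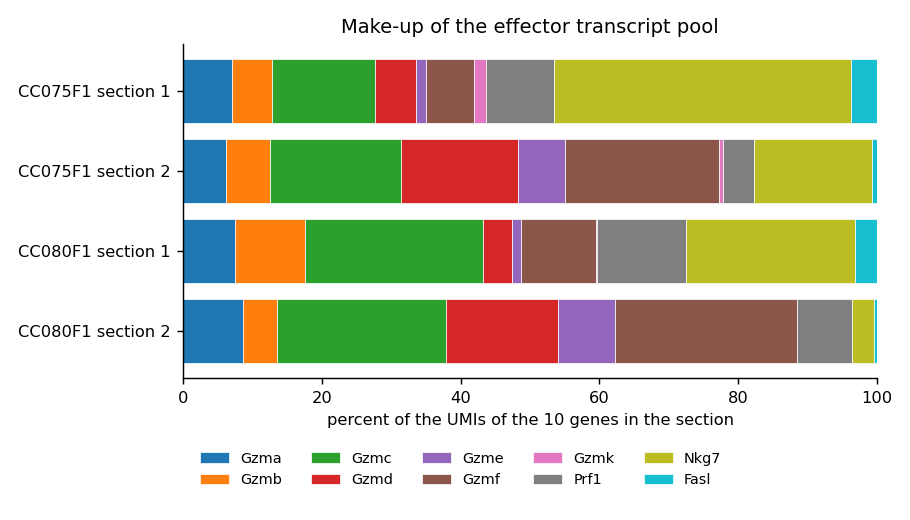
Share of each gene in the UMIs of the 10 genes, in percent, by section (stacked bars, each adding to 100). Gzmc to Gzmf take 64.6% and 75.0% in section 2 of the 2 strains, and Nkg7 takes 42.9% in CC075F1 section 1.

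Gzmc, Gzmd, Gzme and Gzmf are neighbours. In the GRCm38 annotation of GENCODE, 7 protein-coding genes fill chr14:56117626-56262260, all granzymes and all on the minus strand: Gzme, Gzmd, Gzmg, Gzmn, Gzmf, Gzmc and Gzmb, in the order of the coordinates. Gzmg, which is not among the 10, was read at 2.94 and 26.8 CPM in CC075F1 and at 0.267 and 41.4 CPM in CC080F1, the order of its neighbours. Gzmn, in the same stretch, was nearly absent, with no UMI in either section 1, 13 UMIs in CC075F1 section 2 and 16 UMIs in CC080F1 section 2. A count of 0 allows levels of up to 0.0363 CPM in CC075F1 section 1 and 0.0321 CPM in CC080F1 section 1. The coding similarity of these genes could let reads be assigned to the wrong member. Of all 90-base stretches of their annotated transcripts, none of Gzmb, Gzmc, Gzmf or Gzmn occurred in another of the 7 genes, and 0.967% of those of Gzme, 1.59% of Gzmg and 2.17% of Gzmd did, none of them within the last 300 stretches at the 3′ end.

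The bases before the starts of the 4 members are shown because these genes moved together. Each line gives the last 150 bases before the RefSeq start (GRCm38.p6), 5′ to 3′ on the strand of the gene, with 2 motifs in capitals: TGTGGT, the core of Runx sites, searched on both strands, and TGACGTCA, the palindromic cAMP response element.
Gzmc, chr14:56234658-56234807, minus strand: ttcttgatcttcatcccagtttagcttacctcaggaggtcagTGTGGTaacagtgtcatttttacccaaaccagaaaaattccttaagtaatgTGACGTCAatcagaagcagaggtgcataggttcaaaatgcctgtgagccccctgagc
Gzmd, chr14:56132594-56132743, minus strand: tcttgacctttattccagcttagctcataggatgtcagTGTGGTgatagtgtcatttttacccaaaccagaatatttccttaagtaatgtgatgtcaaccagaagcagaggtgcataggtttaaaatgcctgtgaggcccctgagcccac
Gzme, chr14:56120626-56120775, minus strand: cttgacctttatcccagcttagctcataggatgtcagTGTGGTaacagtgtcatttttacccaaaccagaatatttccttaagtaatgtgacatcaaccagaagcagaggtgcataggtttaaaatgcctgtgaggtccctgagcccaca
Gzmf, chr14:56211408-56211557, minus strand: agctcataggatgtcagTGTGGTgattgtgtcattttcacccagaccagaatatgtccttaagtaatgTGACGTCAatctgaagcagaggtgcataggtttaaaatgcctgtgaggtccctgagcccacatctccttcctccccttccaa
TGTGGT lay on the plus strand in the 250 bases before the start of all 4, and on the minus strand as well, further from the start, whereas 14.05% of the 32851 promoters in the table held it on either strand. Gzmc and Gzmf held TGACGTCA, which 1.55% of all promoters held, and Gzmd and Gzme did not. Over all 10 members, 8 held TGTGGT and 2 held TGACGTCA. These are matches of letters, with no measurement of binding. The upstream bases of the 4 clustered genes are much alike, as given next, so their matches are not independent of each other. The neighbour Gzmg held both motifs too. The 250 bases were 71.5% to 94.8% identical between any 2 of Gzmc, Gzmd, Gzme, Gzmf and Gzmg, with Gzmd and Gzme the closest. Those of the scarcely read Gzmn were 46.6% to 48.5% identical to them. Those of Gzmb, which was read at 1.81 to 10.9 CPM, were about as distant from them, at 44.6% to 50.2%.

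Within a section the 4 clustered granzymes were concentrated in few spots. In CC075F1 section 2, Gzmf was detected in 25.7% of spots (95% Clopper-Pearson interval 24.2 to 27.2), yet the 1% of spots with the most Gzmf held 59.3% of its UMIs, and 1 spot held 290 of them. In CC080F1 section 2, Gzmf was detected in 48.0% of spots (46.3 to 49.8) and the top 1% of spots held 28.6% of its UMIs. In the section 1 of each strain the detection was 2.84% in CC075F1 and 4.49% in CC080F1, with 80.2% and 46.4% of the UMIs in the top 1%. The corresponding top shares for Nkg7 were 6.29% to 15.1%, and no spot held more than 11 Nkg7 UMIs. Neighbouring spots were alike in Gzmf: Moran's I, which is near 0 for a random arrangement, was 0.278 and 0.298 in CC075F1 and 0.122 and 0.264 in CC080F1. For Gzmc it was 0.133 to 0.213, for Gzma 0.0672 to 0.191 and for Nkg7 -0.0108 to 0.115. Gzmk and Fasl, whose counts were low, had values of -0.00652 to 0.0225. The intervals and floors cover counting error only.

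The share of spots in which a gene was detected depends on depth. After spots were thinned to 10000 UMIs, with the 53 to 205 shallower spots of each section left out, Gzmf was left in 1.29% and 10.9% of spots in CC075F1 and in 1.35% and 24.8% in CC080F1, while Nkg7 was left in 18.7% and 22.9% in CC075F1 and in 4.43% and 6.94% in CC080F1. Both orders of the sections were thus present at equal depth.

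The densest 1% of spots for the summed Gzmc to Gzmf, 28 to 33 spots per section, were then compared with the spots 3 or more grid steps away. This grouping was made after the levels had been seen, so it is a description without a test. The decline with distance was steep. Gzmf went from 1823 CPM in the densest spots of CC075F1 section 2 to 65.8 CPM at 1 step, 24.2 CPM at 2 steps and 9.34 CPM beyond. In CC080F1 section 2 the same series was 1211, 83.2, 53.4 and 38.3 CPM. Prf1, which was not used to choose the spots, was at 121 CPM in the densest spots and 5.14 CPM beyond in CC075F1 section 2, and at 169 and 14.7 CPM in CC080F1 section 2. In the sparser sections it was at 32.9 and 3.82 CPM in CC075F1 section 1 and at 17.2 and 2.04 CPM in CC080F1 section 1. Gzmb was at 14.8 and 2.33 CPM in CC075F1 section 1, 67.0 and 8.76 CPM in CC075F1 section 2, 11.5 and 1.46 CPM in CC080F1 section 1 and 78.9 and 9.59 CPM in CC080F1 section 2.

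Of 13111 genes detected in at least 1% of the spots of every section, 9 (0.0686%) were over 2-fold higher in the densest spots in all 4 sections, and Prf1 and Gzmb were 2 of them, among 5 members compared. Prf1 had a mean fold of 11.8 (range over sections 8.41 to 23.6) and Gzmb of 7.50 (6.37 to 8.23). The other 7 included Klrg1, an inhibitory receptor of late effector T cells and mature NK cells (9.79, range 4.08 to 28.7), Tnfrsf9, the costimulatory receptor 4-1BB that activated killer cells put up (5.01, range 2.54 to 10.6), Cst7, an inhibitor of the cathepsins that process granzymes (3.77, range 2.15 to 6.09) and Klrd1, the CD94 chain of NK receptors (3.20, range 2.45 to 4.47). Il27ra, a cytokine receptor chain, and the transcripts Gm47079 and Rbm3os completed the 9, on 1 or 2 UMIs in the densest spots of each section. Klrg1 rested on 3 to 4 UMIs in the densest spots of each section 1.

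Nkg7, Gzma, Fasl, Ncr1 and Klrb1c were also higher in the densest spots of all 4 sections, but not over 2-fold in each, and Cd8a was not. Nkg7 was at 38.2 against 18.1 CPM and 35.4 against 25.0 CPM in CC075F1, and at 8.60 against 4.35 CPM and 14.4 against 7.20 CPM in CC080F1, higher in all 4 sections but by over 2-fold in only 1 of them. Gzma was at 3.18 against 2.90 CPM and 28.9 against 9.23 CPM in CC075F1, and at 6.69 against 1.15 CPM and 54.1 against 18.5 CPM in CC080F1, over 2-fold higher in 3 of 4 sections. In CC075F1 section 1 the 2 levels of Gzma were nearly the same, and the densest spots held few of its UMIs. Fasl had folds of 1.32 to 3.50 and Klrb1c of 1.52 to 9.35, on 1 to 6 UMIs in the densest spots of a section. Cd8a was higher in the densest spots of CC075F1 section 1 (20.2 against 12.3 CPM) and CC080F1 section 1 (6.69 against 2.38 CPM), and lower in those of CC075F1 section 2 (3.28 against 6.44 CPM) and CC080F1 section 2 (0.652 against 1.22 CPM). In the densest spots these levels rested on 19 and 5 UMIs of Cd8a in CC075F1 and on 7 and 1 UMIs in CC080F1. Ncr1 was above the distant level in all 4 sections, from 1.31 against 0.798 CPM in CC075F1 section 2 to 5.30 against 0.321 CPM in CC075F1 section 1. These Ncr1 levels in the densest spots also rested on few UMIs. Shisal2b was at 132 against 147 CPM and 258 against 267 CPM in CC075F1 section 1 and CC080F1 section 2.

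**Figure D3:**
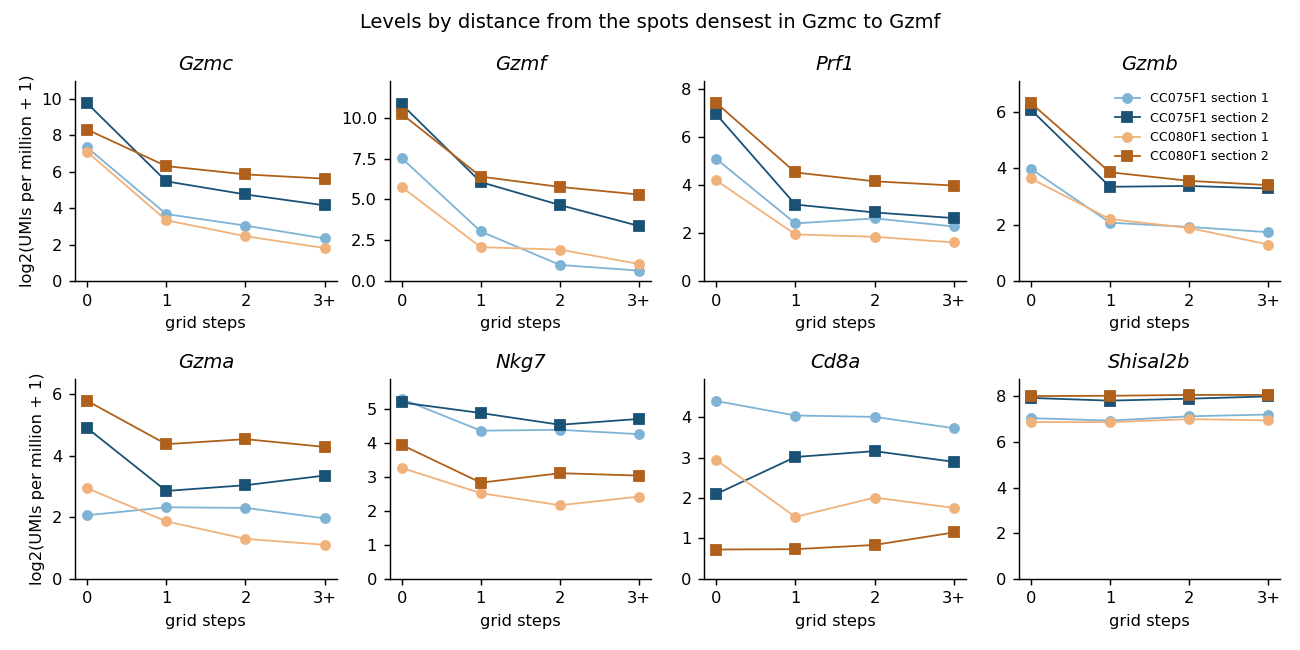
Levels, as log2(CPM + 1), of 8 genes in the spots densest in Gzmc to Gzmf (0 grid steps) and at 1, 2 and 3 or more grid steps from them, 1 line per section. Gzmc and Gzmf chose the spots; Prf1 and Gzmb, which did not, drop at the first step in every section, while the tumor marker Shisal2b stays level.

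Whether the members went with Cd8a or with NK genes was asked across spots at equal depth. For each gene and mark, the odds of finding the gene in marked spots against unmarked spots were pooled over 10 strata of spot depth within a section (Mantel-Haenszel odds ratio, 1 if the gene and the mark are independent). The NK mark is at least 1 UMI of Ncr1, Klrb1c or Klre1, all receptors of NK cells. Klre1 was found in 255 of 351 and 359 of 525 NK-marked spots in CC075F1. In CC080F1 it was found in 70 of 131 and 256 of 612, so the mix of genes behind the mark differed between sections. It was present in 12.95% and 16.0% of CC075F1 spots and in 4.70% and 19.3% of CC080F1 spots, and Cd8a in 29.96% and 23.3% of CC075F1 spots and in 7.50% and 3.59% of CC080F1 spots. Spots of a section share their library and neighbours, so the odds ratios are given without p-values.

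By these odds ratios, Gzma and Gzmb leaned to the NK mark rather than to Cd8a. For Gzma the odds ratio with the NK mark was 1.71 and 2.57 in CC075F1 and 2.57 and 2.34 in CC080F1, while that with Cd8a was 1.12 and 1.45 in CC075F1 and 1.84 and 0.744 in CC080F1. For Gzmb the odds ratio with the NK mark was 1.69 and 2.23 in CC075F1 and 2.69 and 1.79 in CC080F1, while with Cd8a it was 1.39 and 1.72 in CC075F1 and 0.570 and 1.64 in CC080F1. With Ncr1 alone the odds ratios were 2.15 to 3.94 for Gzma and 1.92 to 3.08 for Gzmb. Both genes were thus above 1 with the NK mark in 4 of 4 sections and with Cd8a in 3 of 4. With Cd8b1 the odds ratios were 0.867 to 1.44 for Gzma and 1.16 to 1.82 for Gzmb. For Gzmb the lean was not borne out in summed UMIs. Its log2 ratio of NK-marked to Cd8a-marked spots, given below, ran from -0.34 to 1.52 over sections and was not called.

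By odds ratios, Prf1, Nkg7 and Fasl went with both marks. Prf1 had odds ratios of 1.18 to 2.20 with Cd8a and 1.29 to 1.98 with the NK mark. Nkg7 had 1.42 and 2.21 in CC075F1 and 1.88 and 2.44 in CC080F1 with Cd8a, and 1.47 and 2.22 in CC075F1 and 1.79 and 1.89 in CC080F1 with the NK mark. Fasl had 1.34 to 2.09 with Cd8a and 1.70 to 2.31 with the NK mark, on 5 or more shared spots per section. Among spots without an NK mark, Nkg7 kept odds ratios of 1.43 to 2.91 with Cd8a, and among spots without Cd8a it had 1.46 to 2.05 with the NK mark. Gzmk could be read only in CC075F1, where it had 1.60 and 2.31 with Cd8a and 1.57 and 1.68 with the NK mark.

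For the clustered granzymes the odds ratios with Cd8a differed between sections. Gzmc had odds ratios of 1.24 to 1.96 with the NK mark and 0.875 to 1.33 with Cd8a. Gzmf was near 1 with Cd8a in 3 sections (0.968 to 0.993) and at 2.51 in CC080F1 section 1, and with the NK mark it ran from 0.947 to 1.47. The genes of the NK mark differed here. Gzmc had 2.09 to 4.34 with Ncr1 alone and 0.972 to 1.71 with Klre1 alone, and Gzmf had 0.920 to 2.13 and 0.640 to 1.22. Gzmd had 1.21 to 5.54 with the NK mark and 0.796 to 1.33 with Cd8a. Gzme had 0.948 to 1.65 with the NK mark and 0 to 2.12 with Cd8a, the highest of the latter in CC075F1 section 1. Their ties to each other were closer: the odds ratio between Gzmd and Gzmf was 3.68 to 24.4, between Gzmd and Gzme 4.49 to 35.9 and between Gzmc and Gzmf 2.40 to 4.36. Gzmf and Prf1 had 1.83 to 3.37, whereas Gzmf and Gzma had 0.877 to 1.52.

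**Figure D4:**
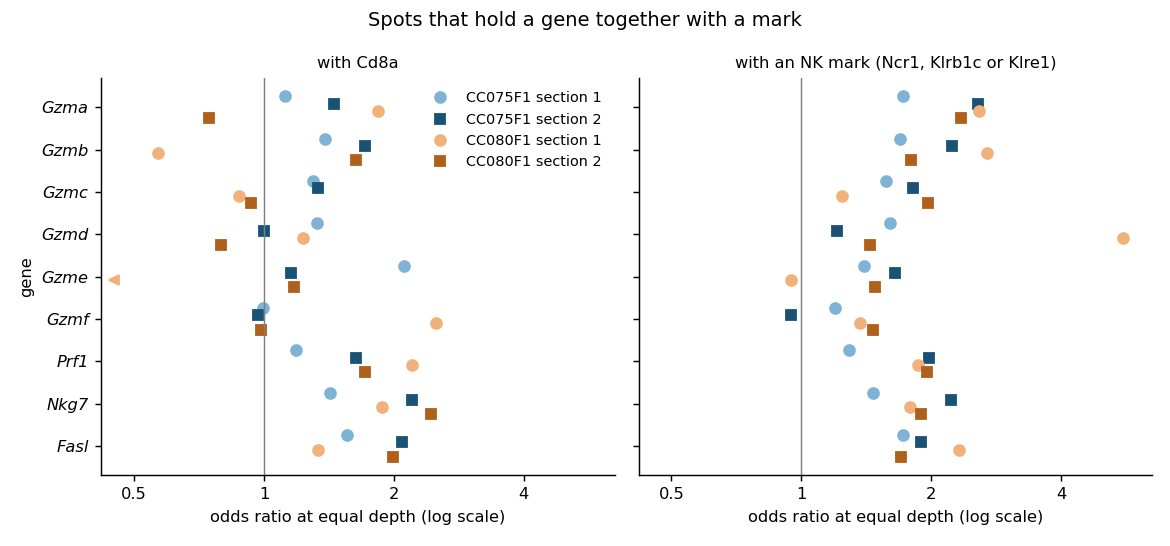
Mantel-Haenszel odds ratios at equal depth (log axis) of 9 members with Cd8a (left) and with the NK mark (right), 1 symbol per section; the line marks 1. Gzma and Gzmb lie right of the line in all 4 sections with the NK mark and in 3 with Cd8a, and Prf1, Nkg7 and Fasl in all 4 with both; the triangle marks an odds ratio of 0 (Gzme in CC080F1 section 1), and Gzmk is left out for want of counts.

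The amounts were compared by summing UMIs over spots. In each section the spots with 1 mark and not the other were paired with as many unmarked spots of the nearest depth, giving 4 pairs of sums, and were tested with edgeR's quasi-likelihood test with section as a block. The genes of the marks were not tested. NK-marked spots held more of 8 of the 9 members tested than unmarked spots (adjusted p under 0.05), beside 1.5% of the 12449 genes tested that were higher there, 1.76% that were lower and 3.26% called in all. Gzma was at 4.35 against 1.01 CPM and 16.7 against 7.94 CPM in CC075F1, and at 3.59 against 1.20 CPM and 31.5 against 13.0 CPM in CC080F1, higher in 4 of 4 sections. Its log2 fold change was 1.18 ± 0.09 (SE, adjusted p = 4.49e-09). Gzmb rose by 0.85 ± 0.12 (adjusted p = 4.99e-05), Prf1 by 0.89 ± 0.11 (adjusted p = 4.59e-06) and Nkg7 by 0.62 ± 0.08 (adjusted p = 2.85e-05), each in 4 of 4 sections. Gzmc to Gzmf rose by 0.81 to 0.92. Fasl had 0.75 ± 0.27 (adjusted p = 0.171). The median over the members tested was 0.83, beside -0.00409 over all genes.

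Cd8a-marked spots gave another picture. Nkg7 was at 21.7 against 15.6 CPM and 35.9 against 20.8 CPM in CC075F1, and at 6.86 against 3.78 CPM and 14.6 against 6.79 CPM in CC080F1, again higher in 4 of 4 sections, with a log2 fold change of 0.64 ± 0.07 (adjusted p = 7.87e-07). Gzmb rose by 0.67 ± 0.13 (adjusted p = 0.00222), in 3 of 4 sections. Gzmd fell by 0.98 (SE 0.13, adjusted p = 2.04e-05) and Gzmf by 0.93 (SE 0.15, adjusted p = 0.000177). Gzmf was at 17.3 against 42.1 CPM in CC075F1 section 2, but at 53.0 against 50.1 CPM in CC080F1 section 2. These 4 of 9 members tested were called, beside 2.49% of all 12678 genes, of which 1.32% were higher and 1.18% lower in marked spots. The falls of Gzmd and Gzmf rested on CC075F1 section 2: without it the values were -0.14 (adjusted p = 0.960) and 0.08 (adjusted p = 0.985), and Nkg7 was then the only member called. The unweighted mean of the 4 section log2 ratios of Gzmf was 0.00904, with an SD of 1.19.

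NK-marked and Cd8a-marked spots of matched depth were also set directly against each other, with 85 to 362 spots of each kind per section. Here 6 of the 8 members tested were higher in NK-marked spots, beside 10 of 11477 genes (0.0871%), and none was higher in Cd8a-marked spots, where 178 of all genes had an unadjusted p under 0.05. Besides these members, the genes called were Gzmg, Cryab (0.53), Des (0.82) and Gpx3 (0.51). Whether a tissue difference between the spot classes, such as muscle, had a part in the calls was not tested. Gzmc was at 12.5 against 6.38 CPM and 60.8 against 24.8 CPM in CC075F1, and at 10.8 against 4.54 CPM and 87.6 against 42.4 CPM in CC080F1. Its log2 ratio was between 0.97 and 1.29 in every section, and its fitted change was 1.20 ± 0.07 (adjusted p = 7.48e-10). Gzma had 0.87 ± 0.13 (adjusted p = 0.00154) and Prf1 0.80 ± 0.14 (adjusted p = 0.00841), with Prf1 higher in 3 of 4 sections. Gzmd had 1.93 ± 0.13, Gzmf 1.82 ± 0.16 and Gzme 1.36 ± 0.17 (adjusted p = 5.24e-09, 2.70e-07 and 0.000135). Gzmb had 0.25 ± 0.14 (adjusted p = 1.00). Nkg7 was at 20.1 against 23.5 CPM and 29.0 against 33.8 CPM in CC075F1 and at 5.99 against 6.93 CPM and 12.3 against 14.6 CPM in CC080F1, slightly lower in NK-marked spots of all 4 sections (-0.23 ± 0.07, adjusted p = 1.00).

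Dense spots weigh heavily, since in CC075F1 section 1, 1 spot held 88.5% of the Gzmf UMIs of the NK-marked spots, and the log2 ratio of NK-marked to Cd8a-marked spots for Gzmf ran from 0.07 to 3.38 over the 4 sections, a wider spread than its standard error. DESeq2's Wald test kept 7 of the 8 calls against unmarked spots for the NK mark, 1 of the 4 for Cd8a (Nkg7) and 1 of the 6 between the marks (Gzmc), and without CC075F1 section 2 Gzmc was the only member called between the marks (1.07, adjusted p = 0.000423 by edgeR). With a broader list of NK receptor genes as the mark, no member was called by edgeR against unmarked spots or between the marks. Against unmarked spots Gzma was at 0.11 (adjusted p = 0.954) and Gzmf at 0.88 (adjusted p = 0.194). There the marked spots held fewer UMIs than with the main mark in each section 2 (2627989 against 17629708 in CC075F1), and more in each section 1. Between the marks, 9 to 119 spots of each kind were left per section, so lost calls cannot be told from lost counts. With Ncr1 alone as the mark, 4 members were called between the marks. With Cd8b1 in place of Cd8a, Gzmb was not called (0.36, adjusted p = 0.166), Nkg7 rose (0.62) and Gzmc, Gzmd, Gzme and Gzmf fell. An exact sign-flip test over 4 sections cannot go below p = 0.125.

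**Figure D5:**
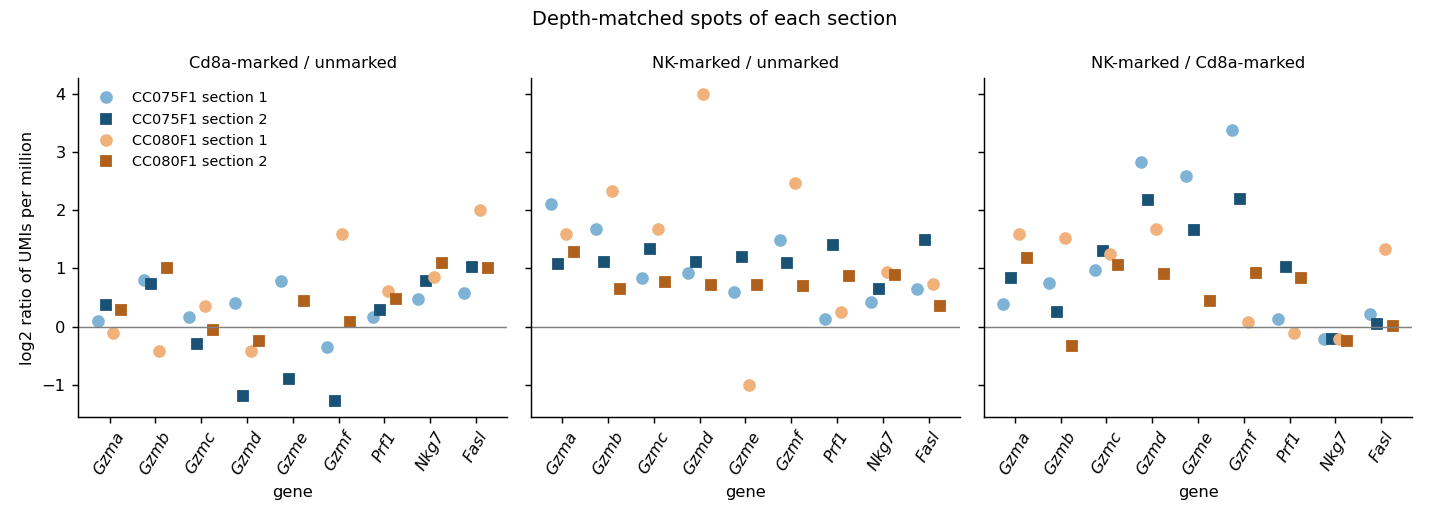
Log2 ratio of CPM between depth-matched spots of a section, for 9 members: Cd8a-marked over unmarked (left), NK-marked over unmarked (middle) and NK-marked over Cd8a-marked (right), 1 symbol per section; a symbol is left out where a class had no UMI. Nkg7 is above 0 in all sections for both marks, Gzmc lies between 0.97 and 1.29 on the right, and Gzmf is spread from 0.07 to 3.38 there.

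Other genes of the pathway were tested in the same fits. Of 6 genes for the granule matrix and the processing of granzymes, 3 rose in NK-marked spots: Ctsc, which activates granzymes (0.18 ± 0.03, adjusted p = 0.00236), Ctsw, a cathepsin of killer lymphocytes (0.88 ± 0.15, adjusted p = 0.000365) and Cst7 (0.68 ± 0.14, adjusted p = 0.00510). Ctsc and Ctsw rose in Cd8a-marked spots too, by 0.17 ± 0.04 and 0.65 ± 0.15. None of 6 genes of the granule release machinery was called for either mark. Of 4 granzyme inhibitors tested, Serpinb9, which blocks granzyme B, rose in NK-marked spots (0.26 ± 0.06, adjusted p = 0.0171), as did Serpinb6b (0.80 ± 0.22, adjusted p = 0.0405), and none did in Cd8a-marked spots. Among the cytokines, Ifng rose in Cd8a-marked spots (0.94 ± 0.20, adjusted p = 0.00703) and had 0.37 ± 0.23 in NK-marked spots (adjusted p = 0.551), while Xcl1 rose with both marks (0.73 ± 0.18 and 0.90 ± 0.13). Of 7 genes of the T cell receptor complex, 5 rose with each mark, among them Trac (0.77 ± 0.12 with Cd8a and 0.50 ± 0.14 with the NK mark), so NK-marked spots also held T cell RNA. The 3 fibroblast genes rose with both marks, by 0.31 to 0.49, and the muscle gene Acta1 rose by 0.51 ± 0.07 with the NK mark (adjusted p = 7.70e-05). The endothelial genes Pecam1 (0.32) and Kdr (0.38) rose with Cd8a, and Irf8 (0.27), the macrophage gene Csf1r (0.17) and the immunoglobulin gene Igkc (1.38) with the NK mark, while Igkc fell by 2.22 with Cd8a. Ero1l, Bnip3 and Slc2a1, known as hypoxia-responsive genes and named here after their values were seen, fell by 0.54, 0.57 and 0.51 with Cd8a and by 0.67, 0.62 and 0.58 with the NK mark. The part of these genes' cells and conditions in the members' calls was not tested. None of 9 genes for death receptors and executioner caspases was called for Cd8a, and Tnfsf10 (TRAIL) was the only one for the NK mark (0.74 ± 0.20, adjusted p = 0.0427). Between NK-marked and Cd8a-marked spots, Gzmg was the only gene of all these lists called (2.16 ± 0.15, adjusted p = 5.24e-09).

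The strains were compared in these contrasts by an interaction term. The Cd8a contrast of Gzmf differed between strains by -1.44 ± 0.24 on the log2 scale (CC075F1 minus CC080F1, adjusted p = 0.0492), 1 of 9 members tested, beside 4 of 12678 genes (0.0316%), of which 0.00789% had a smaller contrast in CC075F1, as Gzmf did, and 0.0237% a larger one. None of 9 members differed between strains in the NK contrast, where 6 of 12449 genes were called (0.0482%). There 4 members had an unadjusted p under 0.05, beside 524 of the 12449 genes. DESeq2 called no gene in either.

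The edge of the section, within 3 grid steps of a position off tissue, was compared with the interior. None of the 10 members was called by edgeR or DESeq2, beside 0.871% of 14345 genes called by edgeR (0.788% higher at the edge and 0.0837% lower). None had an unadjusted p under 0.05, beside 2614 of these genes by edgeR. The log2 fold changes of the members lay between -0.45 and 0.38. Fasl was higher at the edge in 4 of 4 sections by 0.15 to 0.63. Gzmf was higher at the edge in CC075F1 section 1 (2.40) and lower in CC080F1 section 2 (-1.15), and 1 spot held 82.1% of the Gzmf UMIs at the edge of the former.

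The genes whose spot-to-spot pattern was most like that of the 10 members summed were ranked by Pearson's r of depth-corrected residuals over the spots of a section, averaged over 4 sections, among 13106 genes. Tnfrsf9 was at the top with a mean r of 0.27 (0.11 to 0.44), before Klrg1 (0.23), the IL-2 and IL-15 receptor chain Il2rb (0.20), Spp1 (0.18), Klrd1 (0.18), Ifitm1 (0.15), Trbc1 (0.15), Cst7 (0.15), AW112010 (0.14) and Car2 (0.12). The summed pattern is dominated by Gzmc to Gzmf. Taken alone, Nkg7 was nearest to AW112010 (0.19), Tmsb4x (0.18) and Trbc2 (0.17), and Gzma to Il2rb, Ly6a and AW112010 (0.13 each). All points of a section share 1 library, and the values describe likeness only.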

How the data were processed

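Fresh-frozen 10x Visium sections of isotype-treated MC38 tumors were analysed, 2 per host strain. Per the labels, the authors used Space Ranger with GRCm38 (mm10) and deposited raw UMI counts per gene and spot, and their notes also name Seurat 5.0.1. Reads of F1 hosts were aligned to a C57BL/6J-based reference. All spots under tissue were kept. The sections share 1666 of 3994 barcodes, which belong to 1 printed layout. UMIs were summed over spots and tested with edgeR 4.0.16 (quasi-likelihood, TMM, filterByExpr, Benjamini-Hochberg over all genes, threshold 0.05, R 4.3.3). DESeq2 1.42.0, other scalings, no filter, thinning to 10000 UMIs and leaving out sections were alternatives. Shares have exact Clopper-Pearson 95% intervals, and a count of 0 allows up to 3 UMIs. Positions came from GENCODE and upstream bases from RefSeq, in which all 10 genes matched. The scripts were tested on simulated data. The members and gene lists were chosen with earlier results of these data known. Named genes were the members, listed genes past the threshold, a few fixed markers and the 10 genes nearest in pattern. Mark genes were left out of the tests on marked spots. The labels give no batch.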

Additional observations from a re-analysis of the deposited data

Results flagged for a closer look

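The Cd8a contrast of Gzmf was the only result on the members in which the strains differed by the test of the difference itself. The interaction was -1.44 on the log2 scale (CC075F1 minus CC080F1, edgeR, adjusted p = 0.0492), and DESeq2 called no gene in it. The mean log2 ratio of Cd8a-marked to unmarked spots was -0.814 over the CC075F1 sections (-0.34 in section 1 and -1.28 in section 2). Over the CC080F1 sections it was 0.832, from 1.58 in section 1, where Gzmf was sparse (181 UMIs), and only 0.08 in section 2. The odds ratio of Gzmf with Cd8a in CC080F1 section 2 was 0.987, close to the 0.993 and 0.968 of CC075F1. Without CC075F1 section 2 the interaction was -0.57 and was not called.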

How the results depend on the processing

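Of 605 alternative values, 33 were odds ratios under another depth setting, and 29 of these stayed within the spread between sections. Odds ratios were tried under depth settings only, and the other results were judged by other rules, so their steadiness is not compared. For the strain difference, 14 genes and no member were called, against 40 genes and 1 member with library size alone (median of all genes -0.31), 480 and 2 without a filter, 194 and 2 with DESeq2, 7 genes after thinning, and 23 and 1 without muscle-rich spots (added after seeing the data). With library size alone Gzmb was at -0.084 and Gzmd at -0.43, in interior spots Gzmd was at -0.00347, and without spots of skin, muscle or fat markers Gzme was at 0.0667 and Gzmf at 0.079, each with the opposite sign to the reported value and none called. Leaving out each section in turn gave 11 to 207 genes and 0 to 8 members, with Gzma from -1.79 to 2.73, Gzmb from -1.32 to 2.28, Gzmc from -2.21 to 2.48, Gzmd from -2.88 to 4.80, Gzme from -3.81 to 5.17, Gzmf from -3.36 to 3.82 and Prf1 from -1.35 to 1.70. With the replicate number as a block, 287 genes and 2 members (Gzmk and Nkg7) were called, and Gzma (0.30), Gzmc (0.0572), Gzme (0.37), Gzmf (0.16) and Prf1 (0.0234) changed sign. The deviations of same-numbered sections correlated at 0.165 over 15572 genes, but with 2 pairs the numbers are only names.

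For Cd8a-marked spots (316 genes, 4 members), the counts were 513 genes without a filter, 48 and 1 member with DESeq2, 205 with Cd8b1 in place of Cd8a (members 1 higher and 4 lower, against 2 and 2), and 65 to 341 genes and 1 to 6 members when sections were left out, with Gzmc from -0.28 to 0.0409 and Gzmf from -1.20 to 0.0778. For NK-marked spots (406 genes, 8 members), they were 70 genes with DESeq2, 128 with Ncr1 alone, 8 genes and 0 members with a broader NK list (Nkg7 at -0.0242), and 197 to 370 genes and 8 members when sections were left out. Between the marks (10 genes, 6 members), they were 33 genes without a filter, 1 gene and 1 member with DESeq2, 74 genes with Cd8b1, 0 genes and 0 members with the broader list (on 9 to 119 spots of each kind per section), 4 members with Ncr1 alone, and 2 to 39 genes and 1 to 6 members when sections were left out. For the edge (125 genes), they were 683 without a filter, 596 with DESeq2, 39 within 5 steps and 1 to 853 when sections were left out. DESeq2 called 0 genes and 0 members in both strain interactions. With sections left out, the Cd8a interaction had 3 to 38 genes and 0 to 1 members, with Gzmf from -2.85 to -0.57, and the NK interaction had 0 to 32 genes and 0 to 1 members. The mean share of CC075F1 spots with any member was 72.6%, 41.4% after thinning, 49.4% with 2 or more UMIs and 57.97% to 87.2% by section. The causes were not tested. Gzmk in CC080F1 (1 and 3 UMIs) and Gzme in CC080F1 section 1 (21 UMIs) rest on few UMIs.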
